A study of Mus musculus with 8 samples.

Results

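Transcripts of 10 genes used by inflammatory monocytes and neutrophils were followed in RNA sequencing libraries labelled as CD8+ tumor-infiltrating lymphocytes. The genes, named by symbol, were S100a8, S100a9, Lyz2, Il1b, Csf3r, Cd14, Cybb, Ncf1, Plac8 and Ly6c2, which are 10 of the 55487 genes in each deposited file. The tacrolimus group was 4 C57BL/6 mice given tacrolimus (FK506), a calcineurin inhibitor, by intraperitoneal injection at 3 mg/kg every 5 days. The vehicle group was 4 C57BL/6 mice given vehicle on the same schedule, and each mouse gave 1 library. All 8 mice carried a subcutaneous tumor of B16F10, a pigmented mouse melanoma line, and dosing began 7 to 9 days after inoculation, when tumors measured about 50 mm3. Tumors were taken 6 days after dosing began and the CD8+ lymphocytes were sorted from the digest, so the model is 1 transplanted line in 1 inbred strain at 1 time.

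Monocytes and neutrophils are short-lived phagocytes that leave the bone marrow and enter inflamed tissue and tumors. They carry the calcium-binding alarmin pair S100A8 and S100A9, kill microbes with lysozyme and with superoxide from the phagocyte NADPH oxidase, sense bacterial products through CD14 and Toll-like receptors, and release interleukin 1 beta. Granulocyte colony-stimulating factor, acting on its receptor CSF3R, drives the production of neutrophils. In tumors such cells lie among resident macrophages, which share many of these genes. T cells are not known for alarmin, lysozyme or CD14 expression, although activated CD8+ T cells carry Ly6C on their surface.

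Values are FPKM, that is, fragment numbers divided by transcript length and library size, so levels can be set beside each other between genes. Each library rested on an estimated 15600000 to 19400000 fragments. The libraries held RNA of several cell types besides T cells. The 10 T cell markers summed to 54.8 to 429 FPKM in tacrolimus libraries and 431 to 1685 FPKM in vehicle libraries. The 10 macrophage markers summed to 1027 to 1168 FPKM in tacrolimus libraries and 1235 to 1635 FPKM in vehicle libraries. Most of this sum was 1 gene, Apoe, which averaged 734 FPKM in tacrolimus libraries and 927 FPKM in vehicle libraries. The mean sums were 1089 FPKM in tacrolimus libraries and 1495 FPKM in vehicle libraries. The 8 melanoma markers summed to 22034 to 27022 FPKM in tacrolimus libraries and 18455 to 33514 FPKM in vehicle libraries. Vehicle replicate 1 stood apart and held 63.9% of the first principal component, so the results below are also given without it; tacrolimus replicate 2 held 21.6%. No gene passed the adjusted threshold of 0.05 between the groups in limma, where 2056 of 13032 genes tested were lower and 208 higher at an unadjusted p under 0.05. The lower share of these calls, 90.8%, was 54.3% after median-of-ratios scaling and 48.3% after upper-quartile scaling. Genes lower at that p were 15.8% of all genes tested, 6.15% after median-of-ratios scaling and 5.3% after upper-quartile scaling. A lower mean in tacrolimus libraries was seen in 75.7% of all genes tested. In 10.2% every tacrolimus library lay below every vehicle library.

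The promoters of the alarmin pair, of lysozyme and of Il1b are shown because these members encode secreted products. Each line holds RefSeq sequence of GRCm38.p6 along the strand of the gene, 250 bases before and 50 bases after the annotated start. S100a8 lies at chr3:90668821-90669120 on the plus strand, S100a9 at chr3:90695672-90695971, Lyz2 at chr10:117282223-117282522 and Il1b at chr2:129371090-129371389, all 3 on the minus strand. Capitals mark matches to TTNNGNAA, a C/EBP core searched on both strands, to GAGGAA, a PU.1 core searched on both strands, and to TATAAA along the strand of the gene. In S100a8 a TTCCTC match and the TATAAA match lie side by side and share no letter.
S100a8: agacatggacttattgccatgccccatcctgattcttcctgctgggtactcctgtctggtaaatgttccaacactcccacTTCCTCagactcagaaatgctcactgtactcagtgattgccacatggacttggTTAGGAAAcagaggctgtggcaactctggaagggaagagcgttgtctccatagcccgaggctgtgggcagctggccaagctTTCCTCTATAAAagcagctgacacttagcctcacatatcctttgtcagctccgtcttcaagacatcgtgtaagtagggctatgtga
S100a9: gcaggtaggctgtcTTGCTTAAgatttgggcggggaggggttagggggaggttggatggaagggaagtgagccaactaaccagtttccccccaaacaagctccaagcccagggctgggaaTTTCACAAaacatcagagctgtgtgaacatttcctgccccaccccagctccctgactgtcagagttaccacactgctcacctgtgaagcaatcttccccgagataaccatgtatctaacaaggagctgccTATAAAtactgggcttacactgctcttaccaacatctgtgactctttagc
Lyz2: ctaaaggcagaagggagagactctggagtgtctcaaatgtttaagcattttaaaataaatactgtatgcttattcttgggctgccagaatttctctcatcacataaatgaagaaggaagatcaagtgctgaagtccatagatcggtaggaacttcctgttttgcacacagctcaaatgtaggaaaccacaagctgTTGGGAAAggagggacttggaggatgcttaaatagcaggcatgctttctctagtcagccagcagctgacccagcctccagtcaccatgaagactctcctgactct
Il1b: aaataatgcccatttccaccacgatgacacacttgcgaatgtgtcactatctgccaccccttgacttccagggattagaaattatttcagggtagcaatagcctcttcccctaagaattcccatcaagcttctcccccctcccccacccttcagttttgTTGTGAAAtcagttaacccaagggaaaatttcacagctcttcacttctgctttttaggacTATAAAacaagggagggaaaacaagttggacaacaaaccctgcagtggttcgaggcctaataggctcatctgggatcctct

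Cd14 was left out of the promoter search. Of the other 9 members, 6 held TTNNGNAA, against 40.7% of all 32851 promoters of that length. GAGGAA was present in 5 of the 9, against 28.3% of all promoters, and both motifs in 3, against 11.8%. Plac8 and Ly6c2 have an additional promoter window each, and a member was counted if any of its windows matched. The shares over all promoters count single windows, so the units differ. Plac8 and Ly6c2 each have a window that holds both motifs. TATAAA was present in 3, namely S100a8, S100a9 and Il1b, against 8.32% of all promoters. It starts 30 bases before the annotated start in S100a8 and 31 bases before it in Il1b, while in S100a9 it starts at the annotated start itself. A match describes the letters in the window and is not evidence of a bound factor.

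All 10 members had their highest level in vehicle replicate 1, and vehicle replicate 4 came next in 8 of them. In Plac8 the next highest library was tacrolimus replicate 1, and in Ly6c2 it was vehicle replicate 3. Within the tacrolimus group, replicate 2 was lowest for 7 members and replicate 4 for the other 3, which were S100a8, S100a9 and Csf3r. The highest library exceeded the next one by between 1.52 times for Cybb and 4.75 times for S100a8. The lowest library overall was a tacrolimus library for 9 members and vehicle replicate 3 for Il1b.

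**Figure D1:**
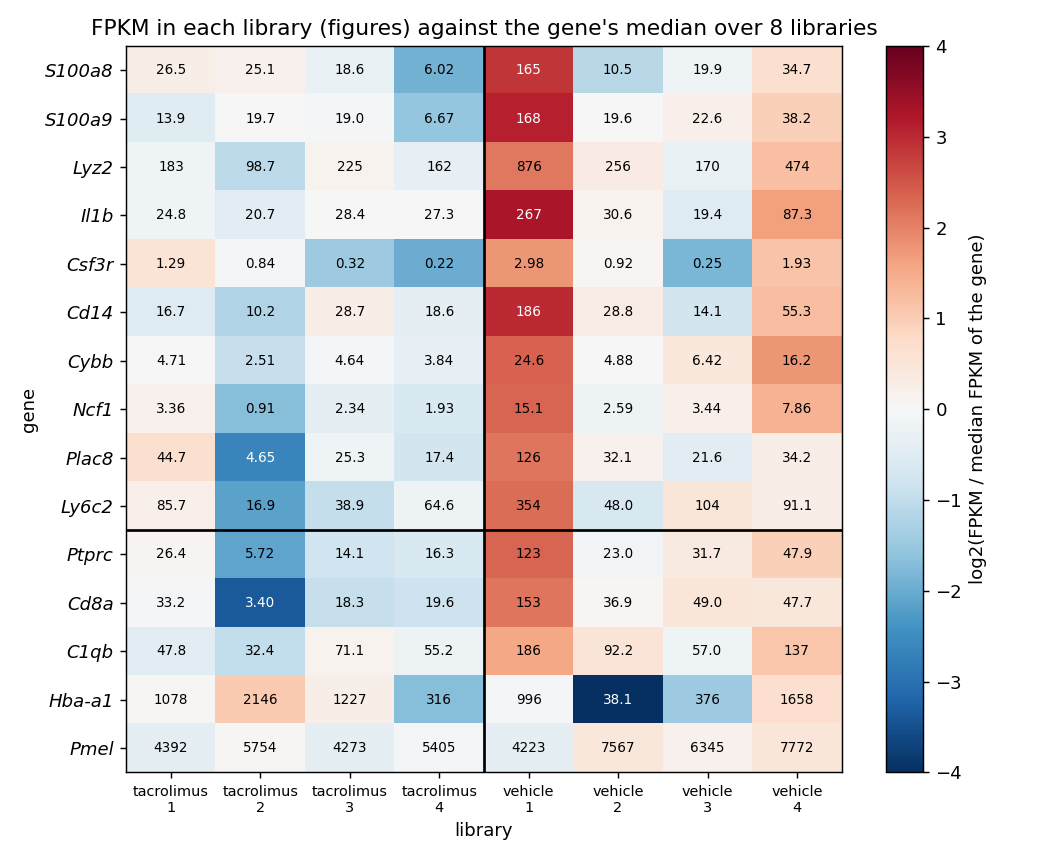
Level of each member (upper rows) in each of the 8 libraries (columns, tacrolimus left of vehicle), with the FPKM printed in each cell. The lower rows show Ptprc, Cd8a, C1qb, Hba-a1 and Pmel. Color gives log2 of the FPKM divided by the median FPKM of that gene over the 8 libraries. Vehicle replicate 1 is the highest library in all 10 member rows. Tacrolimus replicates 2 and 4 hold the lowest tacrolimus values of the members.

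S100a8 and S100a9 encode the subunits of calprotectin, a calcium- and zinc-binding complex abundant in neutrophils and in inflammatory monocytes. S100a8 (chromosome 3, 90668978 to 90670035, GRCm38) had 26.5, 25.1, 18.6 and 6.02 FPKM in tacrolimus libraries, against 165, 10.5, 19.9 and 34.7 FPKM in vehicle libraries. The groups overlapped, and only vehicle replicates 1 and 4 lay above every tacrolimus library. S100a8 averaged 19.0 ± 9.34 FPKM in tacrolimus libraries and 57.4 ± 72.2 FPKM in vehicle libraries (SD, n = 4 each). The log2 difference was -0.96 (SE 0.74, limma adjusted p = 0.495). Without vehicle replicate 1 the difference was -0.21 (limma adjusted p = 0.810), with a vehicle mean of 21.7 FPKM.

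S100a9 (chromosome 3, 90692632 to 90695721) had 13.9, 19.7, 19.0 and 6.67 FPKM in tacrolimus libraries, against 168, 19.6, 22.6 and 38.2 FPKM in vehicle libraries. The overlap was narrow, since only the lowest vehicle library, replicate 2, lay below a tacrolimus library, replicate 2. Its means were 14.8 ± 6.01 FPKM in tacrolimus libraries and 62.2 ± 71.2 FPKM in vehicle libraries (SD, n = 4 each). With a log2 difference of -1.52 (SE 0.61), S100a9 had the largest difference of the 9 members tested, at a limma adjusted p of 0.252. Leaving out vehicle replicate 1 gave -0.86 (limma adjusted p = 0.219) and a vehicle mean of 26.8 FPKM.

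The alarmin subunits were not in a fixed ratio. S100a8 over S100a9 was 1.90, 1.27, 0.978 and 0.903 in tacrolimus libraries, against 0.979, 0.537, 0.881 and 0.909 in vehicle libraries. The ratio was thus highest in tacrolimus replicate 1 and lowest in vehicle replicate 2, and the groups overlapped (exact two-sided permutation p = 0.143). Its log2 difference was 0.59, and 0.68 without vehicle replicate 1. Both genes are short, with a longest coding transcript of 486 bases for S100a8 and 519 bases for S100a9, and the lowest values rested on an estimated 22 and 28 fragments. Within each group, the library lowest in S100a8 was also lowest in the hemoglobin gene Hba-a1, a red cell transcript looked at after the values were seen. Hba-a1 was 316 FPKM in tacrolimus replicate 4, with 1078 to 2146 FPKM in the other tacrolimus libraries. It was 38.1 FPKM in vehicle replicate 2, with 376 to 1658 FPKM in the other vehicle libraries. The highest libraries did not match. S100a8 was highest in replicate 1 of each group, and Hba-a1 in tacrolimus replicate 2 and vehicle replicate 4. All 5 erythroid markers had a higher mean in tacrolimus libraries, 0 of them at an unadjusted p under 0.05 in limma, and they summed to 1188 to 7897 FPKM in tacrolimus libraries and 116 to 5798 FPKM in vehicle libraries. The part of blood in the alarmin values was not tested.

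**Figure D2:**
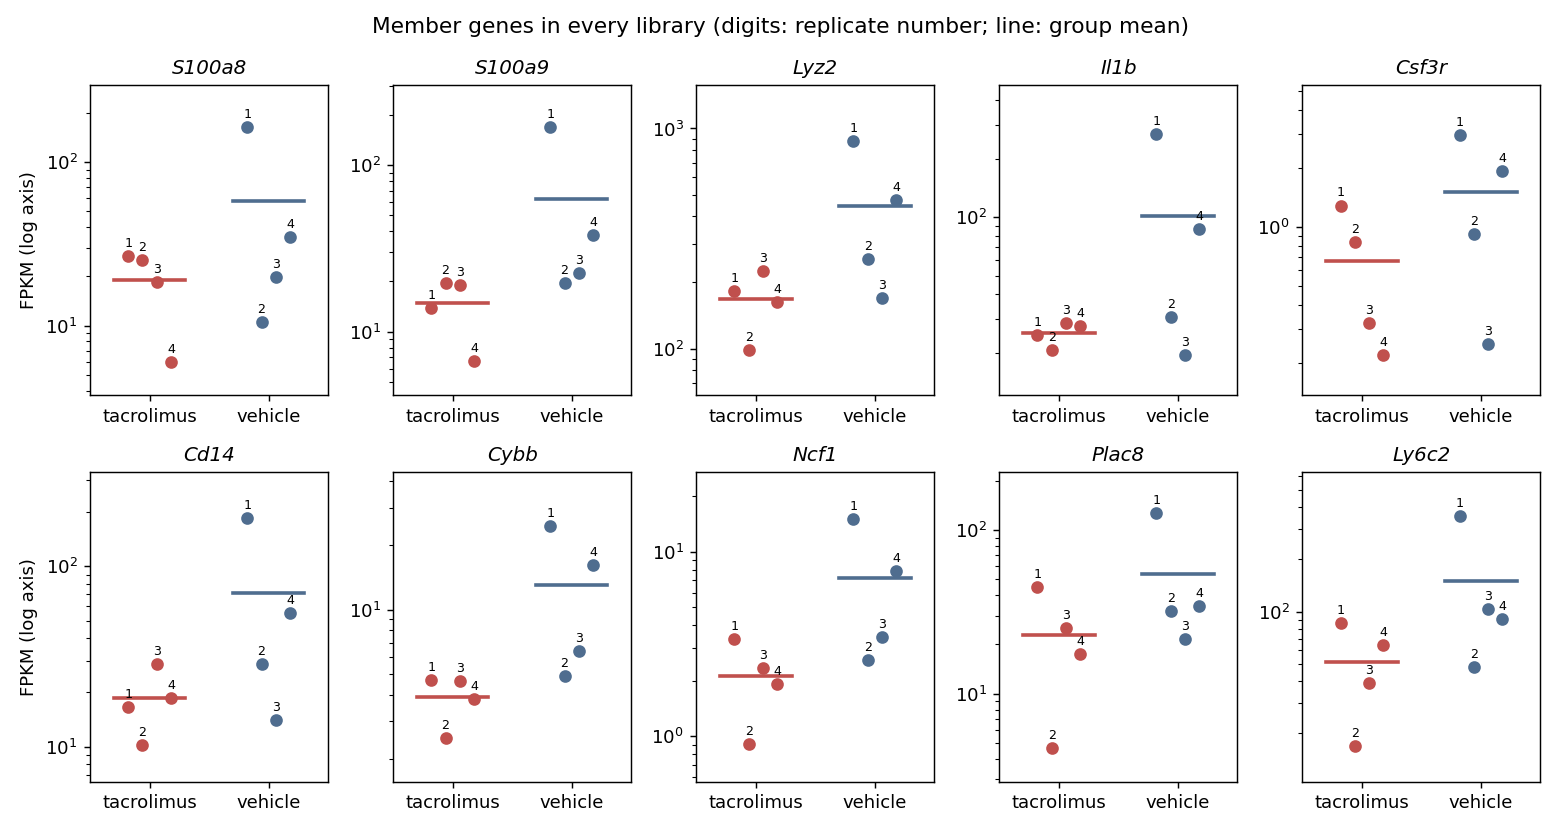
Level of each member in FPKM on a log axis, 1 panel per gene, with 1 point per library numbered by replicate, tacrolimus left of vehicle, and a bar at each group mean. Cybb is the only panel in which the groups do not overlap, and vehicle replicate 1 is the highest point in every panel.

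Csf3r, the receptor through which granulocyte colony-stimulating factor acts on neutrophils and their precursors, was the least abundant member. It had 1.29, 0.84, 0.32 and 0.22 FPKM in tacrolimus libraries, against 2.98, 0.92, 0.25 and 1.93 FPKM in vehicle libraries. Vehicle replicates 1 and 4 lay above the tacrolimus range and the other vehicle libraries within it. Only 3 libraries reached 1 FPKM, so Csf3r was below the filter of 1 FPKM in at least 4 libraries and was not in the limma fit. Its mean was 0.668 ± 0.496 FPKM in tacrolimus libraries and 1.52 ± 1.19 FPKM in vehicle libraries (SD, n = 4 each). In log2(FPKM + 1) the groups differed by -0.51 (exact two-sided permutation p = 0.286, smallest possible p 0.0286), and -0.25 without vehicle replicate 1. A share of 11.1% of its 50-base pieces also occurs in another annotated gene, so its reads could be split between genes.

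Several defining genes of neutrophils were at or near 0, and others were detected. Camp, Mpo, Elane and Ctsg, which encode cathelicidin and granule enzymes made in the bone marrow, were listed at 0 in all 8 libraries. Ly6g, the mouse neutrophil surface marker, was listed at 0 except for 0.09 FPKM in tacrolimus replicate 4 and 0.60 FPKM in vehicle replicate 1. Ngp was listed at 0 except for 0.39 FPKM in tacrolimus replicate 4. Of the 16 genes in this list, 4 were tested, and all 4 had a lower mean in tacrolimus libraries, against 75.7% of all genes tested. At an unadjusted p under 0.05 in limma 0 were lower, against 15.8% of all genes tested. Their median log2 difference was -0.50, against -0.19 over all genes tested. Without vehicle replicate 1 it was -0.43, against -0.24. Other genes of the list were detected, and their patterns over the libraries differed. Wfdc21 had 1.76 to 3.03 FPKM in tacrolimus libraries, against 2.51, 2.96, 3.02 and 8.01 FPKM in vehicle libraries. Mmp9 had 0.42 to 1.6 FPKM in tacrolimus libraries, against 1.9, 1.19, 0.52 and 1.17 FPKM in vehicle libraries. Vehicle replicate 1 lay inside the tacrolimus range for Wfdc21, and vehicle replicate 4 for Mmp9. Mmp8, a collagenase of neutrophil granules, had 0.99, 0.69, 0.92 and 0.38 FPKM in tacrolimus libraries, against 5.09, 0.52, 1.29 and 3.37 FPKM in vehicle libraries. Lcn2, which encodes lipocalin 2, had 0.46, 1.62, 1.23 and 0.48 FPKM in tacrolimus libraries, against 4.19, 0.19, 1.38 and 3.14 FPKM in vehicle libraries. For Mmp8 and Lcn2 vehicle replicates 1 and 4 lay above the tacrolimus range and the groups overlapped. Mmp8 was chosen after its values were seen. The highest value of the list was that of Retnlg, a resistin-like gene of mature neutrophils, at 13.6 FPKM in vehicle replicate 1. Retnlg averaged 0.815 ± 0.675 FPKM in tacrolimus libraries and 4.57 ± 6.02 FPKM in vehicle libraries (SD, n = 4 each).

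Lyz2, the lysozyme of macrophages, monocytes and neutrophils, was the most abundant member. The levels of Lyz2 (chromosome 10, 117277331 to 117282321) were 183, 98.7, 225 and 162 FPKM in tacrolimus libraries, against 876, 256, 170 and 474 FPKM in vehicle libraries. Vehicle replicate 3 lay within the tacrolimus range and the other 3 vehicle libraries lay above it. The means were 167 ± 52.7 FPKM in tacrolimus libraries and 444 ± 315 FPKM in vehicle libraries (SD, n = 4 each), with a limma estimate of -1.19 on the log2 scale (SE 0.45, adjusted p = 0.238). This estimate was -0.77 without vehicle replicate 1 (limma adjusted p = 0.235). Its paralog Lyz1, known from Paneth cells of the gut, shares 15.4% of the 50-base pieces of Lyz2 and averaged 0.58 ± 0.39 FPKM in tacrolimus libraries and 1.75 ± 0.99 FPKM in vehicle libraries (SD, n = 4 each).

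Ly6c2 encodes Ly6C, the surface marker by which classical monocytes are sorted in mice and which memory CD8+ T cells also carry. It had 85.7, 16.9, 38.9 and 64.6 FPKM in tacrolimus libraries (chromosome 15, 75108158 to 75111970), against 354, 48.0, 104 and 91.1 FPKM in vehicle libraries. Vehicle replicate 2 lay inside the tacrolimus range and the other vehicle libraries above it. The log2 difference was -1.35 (SE 0.61, limma adjusted p = 0.289), and -0.80 without vehicle replicate 1 (limma adjusted p = 0.333). Its near-copy Ly6c1 shares 30.8% of the 50-base pieces of Ly6c2, so the split of reads between them is uncertain. Ly6c1 averaged 7.44 ± 3.22 FPKM in tacrolimus libraries and 9.58 ± 2.04 FPKM in vehicle libraries (SD, n = 4 each), a log2 difference of -0.39.

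Plac8 encodes a small cysteine-rich protein found in monocytes, neutrophils and lymphocytes. Its levels were 44.7, 4.65, 25.3 and 17.4 FPKM in tacrolimus libraries, against 126, 32.1, 21.6 and 34.2 FPKM in vehicle libraries. Only vehicle replicate 1 lay above the whole tacrolimus group, and tacrolimus replicate 2 lay below all other libraries. Plac8 (chromosome 5, 100553725 to 100572245) differed by -1.19 on the log2 scale (SE 0.66, limma adjusted p = 0.362), and by -0.66 without vehicle replicate 1 (limma adjusted p = 0.480).

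Among 12 other genes of inflammatory monocytes, 11 were tested, all 11 had lower means in tacrolimus libraries and 4 were lower at an unadjusted p under 0.05 in limma, against 75.7% and 15.8% of all genes tested. With median-of-ratios or upper-quartile scaling 10 of the 11 were lower on average and 1 at that p. The median log2 difference of the 11 was -1.05, against -0.19 over all 13032 genes tested, and -0.66 against -0.24 without vehicle replicate 1. Ms4a4c averaged 2.14 ± 1.43 FPKM in tacrolimus libraries and 11.1 ± 10.8 FPKM in vehicle libraries (SD, n = 4 each). Ccr2, the receptor that brings monocytes out of the marrow, averaged 1.95 ± 0.57 FPKM in tacrolimus libraries and 6.66 ± 5.73 FPKM in vehicle libraries.

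Cd14, the co-receptor that hands lipopolysaccharide to TLR4, is encoded on chromosome 18. It had 16.7, 10.2, 28.7 and 18.6 FPKM in tacrolimus libraries, against 186, 28.8, 14.1 and 55.3 FPKM in vehicle libraries. Vehicle replicate 3 lay within the tacrolimus range, vehicle replicate 2 lay just above it, and replicates 1 and 4 lay well above. Cd14 differed by -1.34 on the log2 scale (SE 0.65, limma adjusted p = 0.307), and -0.67 without vehicle replicate 1 (limma adjusted p = 0.356).

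Of 14 genes of the Toll-like receptor pathway other than Cd14, 10 were tested, 9 had a lower mean in tacrolimus libraries, and 4 were lower at an unadjusted p under 0.05 in limma, against 75.7% and 15.8% of all genes tested. After median-of-ratios scaling 8 of the 10 had a lower mean and only Myd88 was lower at that p, and after upper-quartile scaling Myd88 and Tlr2 were. Their median log2 difference was -0.43, and -0.37 without vehicle replicate 1, against -0.19 and -0.24 over all genes. Myd88, the adaptor of most Toll-like receptors and of the interleukin 1 receptor, averaged 9.25 ± 1.02 FPKM in tacrolimus libraries and 16.1 ± 4.41 FPKM in vehicle libraries (SD, n = 4 each). Its groups did not overlap, as in 10.2% of all genes tested. Tlr2 averaged 1.58 ± 0.40 FPKM in tacrolimus libraries and 4.57 ± 2.97 FPKM in vehicle libraries. Tlr4 itself was nearly level between the groups, at 6.10 ± 1.98 FPKM in tacrolimus libraries and 6.61 ± 1.61 FPKM in vehicle libraries, a log2 difference of -0.12. That sign flipped to 0.08 with median-of-ratios scaling, 0.11 with upper-quartile scaling and 0.01 without tacrolimus replicate 3.

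Il1b encodes the cytokine precursor of interleukin 1 beta, which the inflammasome activates. The tacrolimus libraries had 24.8, 20.7, 28.4 and 27.3 FPKM of Il1b (chromosome 2, 129364570 to 129371139), against 267, 30.6, 19.4 and 87.3 FPKM in vehicle libraries. The tacrolimus values were close together and the vehicle values spread on both sides of them, with replicate 3 the lowest library of all. The means were 25.3 ± 3.41 FPKM in tacrolimus libraries and 101.1 ± 115 FPKM in vehicle libraries (SD, n = 4 each). Il1b differed by -1.26 on the log2 scale (SE 0.65, limma adjusted p = 0.336), and -0.56 without vehicle replicate 1 (limma adjusted p = 0.407). An antisense gene, Il1bos, overlaps Il1b, and whether the counting used strand is not stated; Il1bos reached at most 0.38 FPKM.

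Of 11 other genes of the interleukin 1 and inflammasome system, 10 were tested. All 10 had lower means in tacrolimus libraries, against 75.7% of all genes tested. At an unadjusted p under 0.05 in limma 1 was lower, against 15.8% of all genes tested. With either scaling 8 of the 10 had a lower mean and 0 were lower at that p. The gene lower before scaling was Il1rn, the antagonist of the interleukin 1 receptor, with 10.8 ± 3.90 FPKM in tacrolimus libraries and 51.2 ± 63.1 FPKM in vehicle libraries (SD, n = 4 each). Nlrp3, an inflammasome sensor, averaged 1.09 ± 0.56 FPKM in tacrolimus libraries and 3.90 ± 3.33 FPKM in vehicle libraries. The list had a median log2 difference of -0.78, and of -0.25 without vehicle replicate 1, where all genes tested had -0.24.

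Cybb and Ncf1 encode parts of the phagocyte NADPH oxidase: Cybb the catalytic membrane subunit and Ncf1 the cytosolic organizer. Cybb (chromosome X, 9435252 to 9487771) had 4.71, 2.51, 4.64 and 3.84 FPKM in tacrolimus libraries, against 24.6, 4.88, 6.42 and 16.2 FPKM in vehicle libraries. It was the 1 member of 10 in which every tacrolimus library lay below every vehicle library, a pattern that 10.2% of all genes tested showed. The gap was small, since the lowest vehicle library was replicate 2 at 4.88 FPKM and the highest tacrolimus library was replicate 1 at 4.71 FPKM. The means were 3.93 ± 1.02 FPKM in tacrolimus libraries and 13.0025 ± 9.18 FPKM in vehicle libraries (SD, n = 4 each). The log2 difference was -1.28 (SE 0.43), with the smallest limma adjusted p of the members, 0.209. Without vehicle replicate 1 it was -0.91 (limma adjusted p = 0.211), and 19% of all genes then had no overlap.

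Ncf1 had 3.36, 0.91, 2.34 and 1.93 FPKM in tacrolimus libraries (chromosome 5, 134220053 to 134229625), against 15.1, 2.59, 3.44 and 7.86 FPKM in vehicle libraries. Vehicle replicate 2 was the only vehicle library inside the tacrolimus range. The log2 difference was -1.20 (SE 0.46, limma adjusted p = 0.236), and -0.79 without vehicle replicate 1 (limma adjusted p = 0.239). Gtf2ird2 overlaps Ncf1 on the opposite strand and reached at most 3.15 FPKM, which is within the range of Ncf1, so reads of the overlap could count for either gene.

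The other oxidase subunits had lower means in tacrolimus libraries as well, in 5 of 5 genes, against 75.7% of all genes tested. At an unadjusted p under 0.05 in limma 4 of the 5 were lower, with and without vehicle replicate 1. Among all genes tested the share was 15.8%, and 19.3% without vehicle replicate 1. With median-of-ratios or upper-quartile scaling 4 of the 5 had a lower mean and 2 were lower at that p. The median of the 5 was -0.81 with that library and -0.57 without it. Ncf4, a cytosolic subunit, averaged 5.58 ± 2.16 FPKM in tacrolimus libraries and 18.8 ± 13.7 FPKM in vehicle libraries, with no overlap (SD, n = 4 each). Cyba, the membrane partner of Cybb, averaged 155 ± 24.2 FPKM in tacrolimus libraries and 289 ± 130 FPKM in vehicle libraries, also with no overlap. Such a lack of overlap was seen in 10.2% of all genes tested. Rac2, the small GTPase of the complex, which T cells express too, had 21.1 ± 9.93 FPKM in tacrolimus libraries and 79.1 ± 64.2 FPKM in vehicle libraries.

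Set side by side, the 9 members tested all had a lower mean in tacrolimus libraries, as did 75.7% of all genes tested. Their log2 differences lay between -0.96 for S100a8 and -1.52 for S100a9, with a median of -1.26, against -0.19 over all genes tested. In 8 of the 9 the difference was -1 or lower, as in 4.48% of all genes tested. At an unadjusted p under 0.05 in limma, 4 of the 9 were lower (S100a9, Lyz2, Cybb and Ncf1), against a background of 15.8% of genes lower and 1.6% higher. After adjustment, 0 of the 9 members and 0% of all genes tested passed, and the smallest adjusted p of any gene was 0.139. In a bulk sample, fewer cells of a type and less RNA per cell cannot be told apart.

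**Figure D3:**
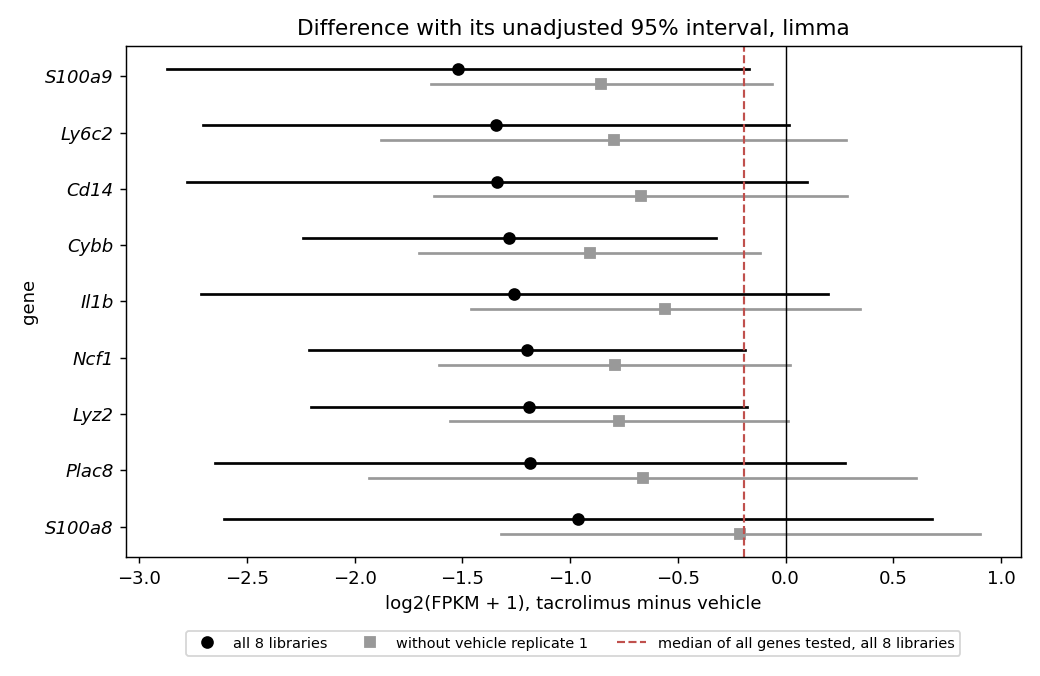
Log2 difference of each tested member (tacrolimus minus vehicle, log2(FPKM + 1)) with its unadjusted 95% interval from limma, for all 8 libraries (black) and without vehicle replicate 1 (grey), with the median of all genes tested as a dashed line. Every grey point lies closer to 0 than the black point of its gene, and S100a8 moves the most, to -0.21.

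The size of these differences rested in part on vehicle replicate 1. Without it, the median of the 9 members was -0.77, against -0.24 over the 12769 genes then tested, and 2 of the 9, S100a9 and Cybb, were lower at an unadjusted p under 0.05 in limma, against 19.3% of genes. A share of 0.00783% of genes, which is 1 gene and no member, passed the adjusted threshold in that fit. Scaling also mattered for the calls. Median-of-ratios scaling moved the median of all genes to 0.00 and that of the members to -1.04, with 1 of 9 members lower at an unadjusted p under 0.05 against 6.15% of genes. Upper-quartile scaling gave 0.03 for all genes and -1.01 for the members, with 1 of 9 members lower against 5.3% of genes.

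Ptprc (CD45), carried by nearly all blood cells except red cells, was also lower on average in tacrolimus libraries. It had 26.4, 5.72, 14.1 and 16.3 FPKM in tacrolimus libraries, against 123, 23.0, 31.7 and 47.9 FPKM in vehicle libraries. Ptprc was highest in vehicle replicate 1, like all 10 members, next highest in vehicle replicate 4, like 8 of them, and lowest in tacrolimus replicate 2, like 6 of them. All 6 pan-leukocyte genes were lower at an unadjusted p under 0.05 in limma, against 15.8% of all genes tested, and 5 of the 6 after either scaling. Their median log2 difference was -1.60 (-1.15 without vehicle replicate 1). These genes summed to 143.5 to 542 FPKM in tacrolimus libraries and 558 to 2231 FPKM in vehicle libraries.

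Divided by Ptprc in the same library, none of the 10 members was lower on average in tacrolimus libraries. The log2 ratio to Ptprc was higher in tacrolimus libraries by between 0.15 for S100a9 and 0.74 for S100a8, the groups overlapped for all 10, and the exact two-sided permutation p ranged over the 10 ratios between 0.2 and 0.914. S100a8 over Ptprc was 1.002, 4.38, 1.31 and 0.37 in tacrolimus libraries, against 1.33, 0.457, 0.627 and 0.725 in vehicle libraries. The highest and the lowest of these ratios were both in tacrolimus libraries, replicates 2 and 4. Lyz2 over Ptprc was 6.91, 17.2, 16.0 and 9.98 in tacrolimus libraries, against 7.09, 11.1, 5.36 and 9.89 in vehicle libraries. Without vehicle replicate 1 the differences lay between 0.16 for Ncf1 and 1.03 for S100a8. Without tacrolimus replicate 2, which had the least Ptprc, the difference was -0.44 for S100a9 and 0.12 for S100a8.

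The members differed in how closely they followed Ptprc. Ncf1 over Ptprc stayed between 0.119 and 0.166 in tacrolimus libraries and between 0.108 and 0.164 in vehicle libraries, so its highest ratio was 1.53 times its lowest. Ly6c2 and Cybb spanned 2.09 and 2.46 times. The alarmins spanned more, 11.8 times for S100a8 and 8.40 times for S100a9, and Csf3r, with the fewest fragments, 18.6 times. These spans are descriptions over the same 8 libraries, and all 10 ratios share 1 divisor.

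**Figure D4:**
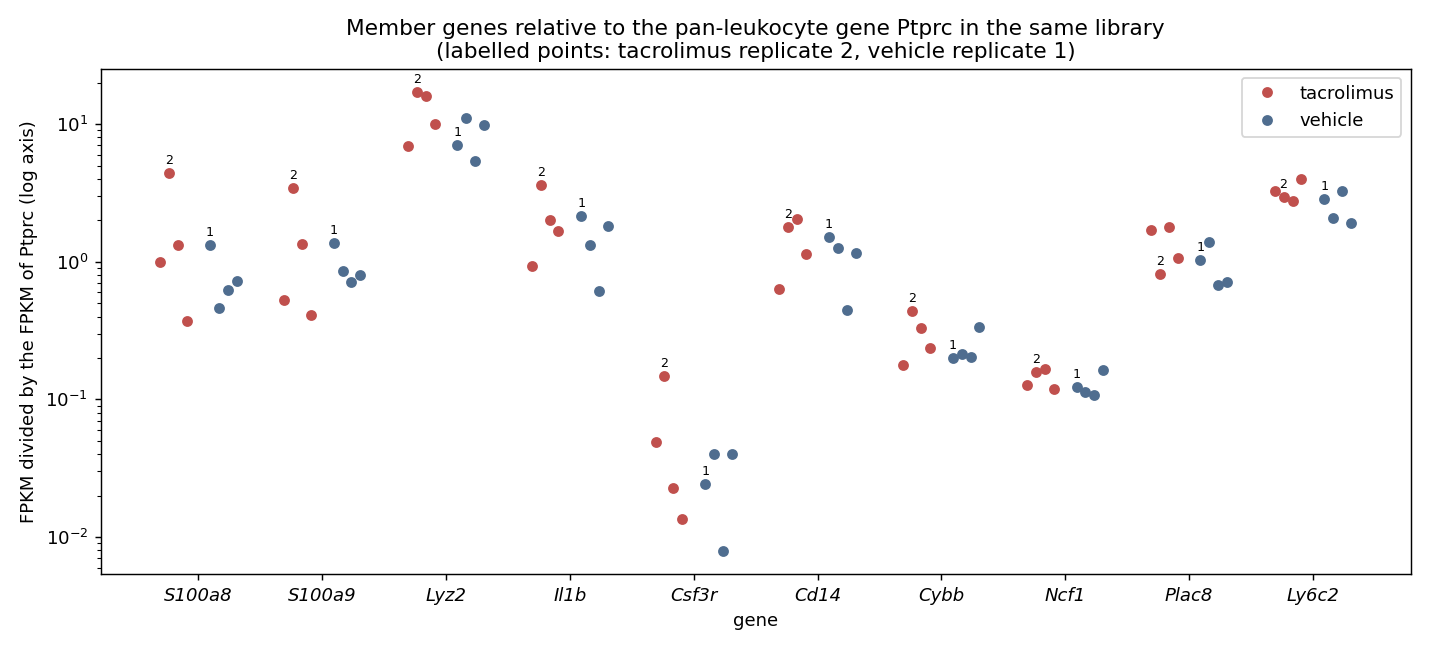
Each member divided by Ptprc in the same library, on a log axis, with tacrolimus libraries left of vehicle libraries. Only tacrolimus replicate 2 and vehicle replicate 1 are numbered. The groups overlap for all 10 members, Ncf1 has the narrowest spread, and tacrolimus replicate 2 has the highest S100a8 and S100a9 ratios.

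Divided by the sum of the complement genes C1qa, C1qb and C1qc, which tissue macrophages make, 2 members had a higher and 8 a lower mean log2 ratio in tacrolimus libraries. The differences lay between -0.47 for S100a9 and 0.12 for S100a8, and the exact two-sided permutation p between 0.371 and 0.971 over the 10 ratios. Without vehicle replicate 1 they lay between -0.20 for Ncf1 and 0.67 for S100a8. Lyz2 followed this sum closely, at 1.26 to 1.45 in tacrolimus libraries and 1.10 to 2.14 in vehicle libraries. Of the 10 macrophage markers, 9 had a lower mean in tacrolimus libraries and 7 were lower at an unadjusted p under 0.05 in limma. Of the 10 T cell markers all 10 were lower at that p. Among all genes tested 75.7% had a lower mean and 15.8% were lower at that p. After either scaling 2 of the macrophage markers and 8 of the T cell markers were lower at that p. The median log2 difference was -0.97 for the macrophage markers (-0.68 without vehicle replicate 1) and -1.86 for the T cell markers (-1.41 without it). The part of these cell types in the members' levels was not tested.

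Genes of colony-stimulating factors and of their receptors followed the same direction. Of 7 colony-stimulating factors and receptors other than Csf3r, 5 were tested, all with a lower mean in tacrolimus libraries, against 75.7% of all genes tested. At an unadjusted p under 0.05 in limma 4 were lower, against 15.8% of all genes tested. After median-of-ratios or upper-quartile scaling 3 were, against 6.15% and 5.3% of all genes. Their median was -1.03, and -0.69 without vehicle replicate 1. The receptor Csf1r averaged 2.502 ± 0.41 FPKM in tacrolimus libraries and 8.70 ± 4.99 FPKM in vehicle libraries (SD, n = 4 each). Its ligand Csf1 had 2.28 ± 0.66 FPKM in tacrolimus libraries and 4.64 ± 1.58 FPKM in vehicle libraries, with no overlap, as in 10.2% of all genes tested.

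Among 8 transcription factors of myeloid cells, 5 were tested, and all 5 had a lower mean in tacrolimus libraries, against 75.7% of all genes tested. At an unadjusted p under 0.05 in limma 3 were lower, against 15.8% of all genes tested, with 3 also after either scaling. The median was -0.77, and -0.64 without vehicle replicate 1. Irf8, which directs monocyte and dendritic cell development and is also expressed in activated T cells, averaged 6.30 FPKM in tacrolimus libraries (range 4.52 to 9.16, n = 4) and 16.7 FPKM in vehicle libraries (range 9.70 to 26.5, n = 4). The groups did not overlap, as in 10.2% of all genes tested. Cebpb, a C/EBP factor of inflammatory myeloid cells, averaged 13.7 ± 2.32 FPKM in tacrolimus libraries and 37.8 ± 26.1 FPKM in vehicle libraries (SD, n = 4 each). Spi1, which encodes PU.1, had 4.17 ± 1.54 FPKM in tacrolimus libraries and 8.83 ± 5.89 FPKM in vehicle libraries.

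Of 8 other S100 genes, 7 were tested, 5 with a lower mean in tacrolimus libraries, against 75.7% of all genes tested. S100a1 and S100b had a higher mean in tacrolimus libraries, with log2 differences of 0.22 and 0.08. At an unadjusted p under 0.05 in limma 0 were lower and 0 higher, against 15.8% and 1.6% of all genes tested. After either scaling 4 had a lower mean and 1 was higher at that p. The median of the 7 was -0.61, and -0.31 without vehicle replicate 1, against -0.19 and -0.24 over all genes. S100a4 averaged 81.6 ± 34.4 FPKM in tacrolimus libraries and 212 ± 203 FPKM in vehicle libraries (SD, n = 4 each), with replicate 1 highest. The Ly6 family members Ly6a and Ly6e, which T cells also express, did not overlap between the groups, as in 10.2% of all genes tested. Ly6a had 33.7 ± 12.9 FPKM in tacrolimus libraries and 116 ± 99.4 FPKM in vehicle libraries, and Ly6e 76.8 ± 32.6 FPKM in tacrolimus libraries and 233 ± 150 FPKM in vehicle libraries.

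Chemokines that attract neutrophils through CXCR2 were also highest in vehicle replicate 1. Cxcl2 had 97.6, 89.7, 126 and 94.6 FPKM in tacrolimus libraries, against 1028, 92.6, 81.1 and 189 FPKM in vehicle libraries. Vehicle replicates 1 and 4 lay above the tacrolimus range, replicate 2 within it and replicate 3 below it. Cxcl3 averaged 7.77 ± 1.37 FPKM in tacrolimus libraries and 79.0 ± 130 FPKM in vehicle libraries (SD, n = 4 each). Of the 5 chemokines, 4 were tested and 1, Ppbp, was lower at an unadjusted p under 0.05 in limma, against 15.8% of all genes tested. After median-of-ratios scaling 0 were lower at that p, against 6.15% of genes. After upper-quartile scaling 1 was, against 5.3% of genes. The median log2 difference of the 4 was -1.24, against -0.19 over all genes tested. Without vehicle replicate 1 the median was -0.32, against -0.24 over all genes then tested.

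**Figure D5:**
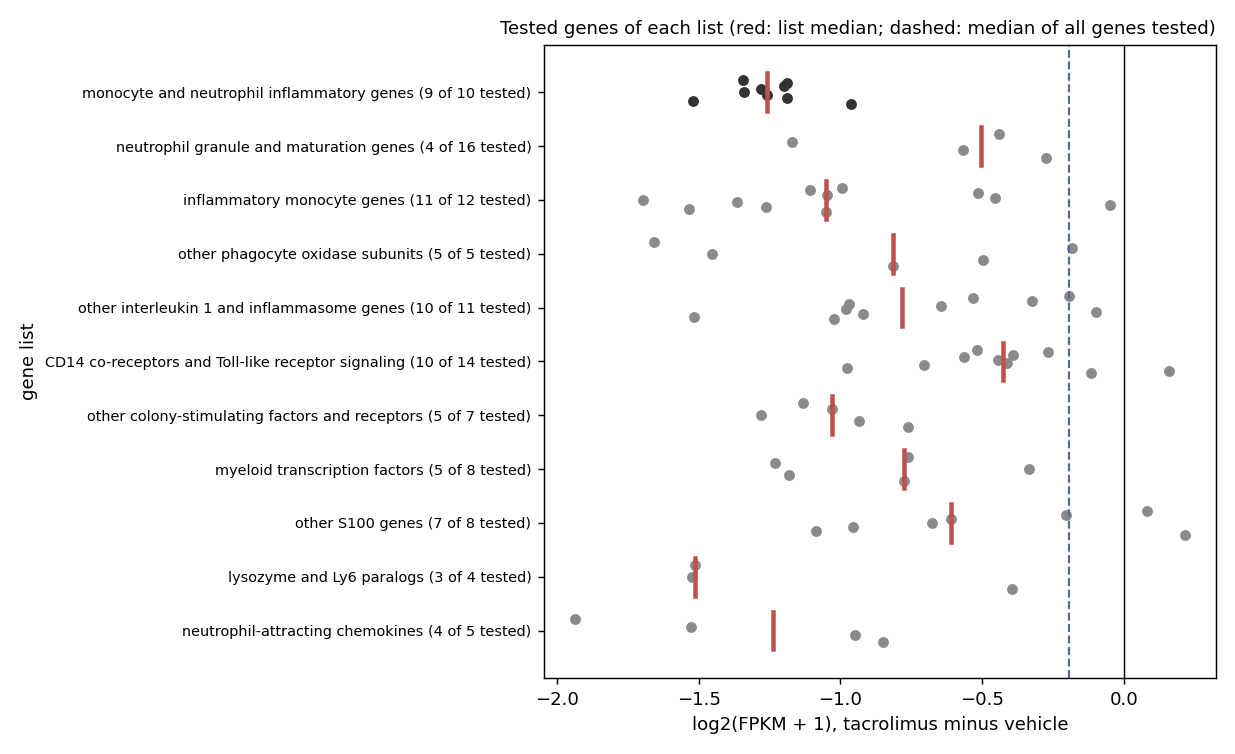
Log2 difference (tacrolimus minus vehicle, log2(FPKM + 1)) of each tested gene among the members and related gene lists, with all 8 libraries. A red line marks the median of each list and a dashed line the median of all genes tested. The members' median is -1.26 and that of the chemokine list is -1.24. Without vehicle replicate 1, which is not drawn, these medians are -0.77 and -0.32.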

How the data were processed

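Libraries of 8 separate mice, per the study's design text, were grouped by sample title. The authors deposited 1 value per gene and library. No source used here names the unit; from steps in the low values (85.6 to 87.2% within 0.15 of a whole step) the deposited values were taken to be FPKM, already scaled by the authors for length and library size. The steps also gave the depth estimate, which covers counting error only. HISAT2 2.1.0, RSEM 1.3.1, DESeq2 1.24.0 and GRCm38.p6 are named in the submitters' processing notes, with no role. Gene coordinates are from the GENCODE annotation of GRCm38.

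Values were transformed to log2(FPKM + 1), which understates the change of low genes. Genes with 1 FPKM or more in at least 4 libraries (13032) were compared with limma 3.58.1 in R 4.3.3 (lmFit, eBayes with trend), with Benjamini-Hochberg adjustment over all genes tested. Csf3r and the ratios were compared with exact two-sided permutation tests over 70 assignments in scipy 1.17.1, unadjusted. The limma step was tested on simulated data. At most 0.361% of values were identical in a pair of libraries.

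The members and lists were chosen with earlier results of these data known. Named genes were the members, the 4 tested genes per list with the lowest unadjusted p, paralogs and cell type references. Some genes that this rule takes are not reported here. Alternatives were another pseudocount, other filters and scalings, robust eBayes, a replicate block, and leaving out each library. Leave-one-out ratios to Ptprc were added after seeing the data.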

Additional observations from a re-analysis of the deposited data

Results flagged for a closer look

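A library was taken as far from the rest of its group where its gap to the nearest other library exceeded Dixon's 95% critical share of the group's range for 4 samples. This held for 20 of the 116 groups of 4 libraries looked at. For normally distributed values chance gives about 1 in 20. The check used FPKM and not log2 values, so that rate may not apply here. Where the other libraries of a group are all listed at 0, as for Ly6g, any value above 0 is flagged. The genes share libraries, so the cases are not independent. Vehicle replicate 1 was the library in 17 of them. Among members it was S100a8 at 165 FPKM (others 10.5 to 34.7), S100a9 at 168 FPKM (others 19.6 to 38.2) and Plac8 at 126 FPKM (others 21.6 to 34.2). Among related genes the same library had 13.6 FPKM of Retnlg, 39.3 FPKM of Ncf4, 145 FPKM of Il1rn, 39.6 FPKM of Il1a and 0.60 FPKM of Ly6g. It also had 514 FPKM of S100a4, 416 FPKM of S100a6, 522 FPKM of S100a10, 455 FPKM of Ly6e and 265 FPKM of Ly6a. The chemokines Cxcl1, Cxcl2 and Cxcl3 reached 239, 1028 and 273 FPKM there, and Cd8a reached 153 FPKM against 36.9 to 49.0 FPKM in the other vehicle libraries.

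The other 3 cases were in other libraries. Wfdc21 was highest in vehicle replicate 4 at 8.01 FPKM (others 2.51 to 3.02). Ly6g was highest in tacrolimus replicate 4 at 0.09 FPKM, the other tacrolimus libraries being listed at 0. Adgre1, which encodes the macrophage marker F4/80, was lowest in tacrolimus replicate 2 at 0.56 FPKM (others 4.17 to 4.83).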

How the results depend on the processing

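Across 16 alternatives for each of the 9 tested members, all 144 differences stayed negative, between -1.88 and -0.21, and the lowest adjusted p in limma was 0.0614. The count of genes past the adjusted threshold was 0 throughout, except 1 without vehicle replicate 1 and 121 with the replicate number as a block, so leaving out a library gave 0 to 1. The replicate numbers share only a number: same-number correlations of deviations were -0.02 to 0.28, 2 of 4 pairs exceeded 0.1, and 2 tacrolimus and 2 vehicle libraries matched their own number best. Under that block, adjusted p values were 0.0344 for Rac2, 0.0348 for Irf8, 0.0362 for Ly6e, 0.0481 for Cd8a and 0.0344 for Ptprc, and 0 members passed. Tlr4 reversed to 0.076 under median-of-ratios scaling and 0.11 under upper-quartile scaling, and ranged between -0.28 and 0.014 when each library was left out; the cause was not tested. Csf3r ranged between -0.80 and -0.25 when each library was left out. The ratio to Ptprc changed sign for S100a9 without tacrolimus replicate 2 (-0.44) and for Cd14 without vehicle replicate 3 (-0.03). Depth limits Csf3r, S100a8 and S100a9 most, whose lowest values rested on an estimated 11, 22 and 28 fragments.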

Other observations

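Markers of cell types outside the comparisons above were scarce or uneven. Keratinocyte markers summed to 0 to 0.26 FPKM in tacrolimus libraries and 0.1 to 0.68 FPKM in vehicle libraries, with Krt1 and Krt6a listed at 0 throughout. Mast cell and basophil markers summed to 0 to 0.05 FPKM in tacrolimus libraries and 0 to 0.46 FPKM in vehicle libraries, with Fcer1a and Tpsb2 listed at 0 throughout. Of 8 dendritic cell markers, 6 were tested, all 6 with a lower mean in tacrolimus libraries, against 75.7% of all genes tested. At an unadjusted p under 0.05 in limma 2 were lower, against 15.8% of all genes tested. After median-of-ratios or upper-quartile scaling 4 had a lower mean and 1 was lower at that p.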
